A study of Mus musculus with 20 samples.

Results

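The comparison set 4 libraries of choroid plexus macrophages against 4 libraries of dura macrophages with high MHC class II, 8 of the 20 libraries of the series. Members were taken from the sample titles. All cells came from C57BL/6JRj mice, and no allele, treatment, age or sex is given in the labels used here. The labels do not say how cells were isolated, how many animals stand behind a library, or whether replicates are separate animals. P-values therefore measure the spread between libraries, which may be technical. This spread was estimated over all 20 libraries, so p-values and standard errors also carry the spread within the 12 libraries outside the comparison. The other 12 libraries are 4 each of dura macrophages with lower MHC class II ("lo" in one label and "int" in the titles, called MHC II-low here), of microglia from the brain and of peritoneal macrophages. Their levels are given beside the comparison as description, with no test.

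The choroid plexus is the folded tissue inside the brain ventricles that secretes cerebrospinal fluid through an epithelium lying on a vascular stroma. The dura is the outermost, collagen-rich membrane around the brain, lying against the skull and drained by lymphatic vessels. Macrophages of both places belong to the border-associated macrophages, which sample antigen, clear debris and present peptides on MHC class II, whereas microglia are the macrophages of the brain tissue itself. Microglia are known for Tmem119, P2ry12 and the transcription factor Sall1, and monocyte-derived macrophages for the chemokine receptor Ccr2. The question is which transcripts set macrophages of the 2 compartments apart.

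Among the largest differences was the near absence of Cd209 transcripts from choroid plexus libraries. The Cd209 genes encode C-type lectins of the DC-SIGN family, which bind mannose-rich glycans, and lie together on chromosome 8. The bases before the RefSeq start of the 5 Cd209 genes on the C-type lectin list, which all fell, and of Olfml3, a marker that rose, are shown because members of this cluster moved together. They cover up to 250 bases before the start in GRCm38.p6, stop at the first annotated exon, and lie at chr8:3748985-3749234 for Cd209a, chr8:3926845-3927091 for Cd209b, chr8:3878556-3878749 for Cd209d, chr8:4105836-4106014 for Cd209f, chr8:4134486-4134651 for Cd209g and chr3:103738002-103738251 for Olfml3. Cd209g reads on the plus strand and the others on the minus strand. GENCODE M21 places Cd209g at 4134098–4137707, so its stretch lies before the RefSeq start but inside the gene as annotated there. Transcripts annotated as retained introns were left out when exons were looked up. Capitals mark matches, on either strand, to 3 motifs: TGANTCA (AP-1), AGGAAG (core of ETS factors) and GTCTAGAC (SMAD). None of these overlap each other in the stretches shown.
Cd209a: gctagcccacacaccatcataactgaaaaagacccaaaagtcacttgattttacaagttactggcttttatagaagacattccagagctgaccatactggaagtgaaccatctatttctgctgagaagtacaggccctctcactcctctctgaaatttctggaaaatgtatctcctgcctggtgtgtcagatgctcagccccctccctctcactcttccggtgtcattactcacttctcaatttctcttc
Cd209b: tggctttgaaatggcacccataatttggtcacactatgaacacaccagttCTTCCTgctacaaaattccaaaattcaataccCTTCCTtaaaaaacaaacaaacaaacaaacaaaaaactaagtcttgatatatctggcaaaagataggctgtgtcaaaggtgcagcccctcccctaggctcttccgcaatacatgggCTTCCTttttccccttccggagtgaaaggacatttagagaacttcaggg
Cd209d: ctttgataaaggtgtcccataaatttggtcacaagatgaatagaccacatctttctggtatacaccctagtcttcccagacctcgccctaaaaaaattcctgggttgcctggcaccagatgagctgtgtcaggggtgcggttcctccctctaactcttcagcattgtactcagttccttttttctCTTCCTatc
Cd209f: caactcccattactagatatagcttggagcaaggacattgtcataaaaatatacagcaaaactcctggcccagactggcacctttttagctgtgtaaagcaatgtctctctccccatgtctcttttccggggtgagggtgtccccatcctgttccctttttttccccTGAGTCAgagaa
Cd209g: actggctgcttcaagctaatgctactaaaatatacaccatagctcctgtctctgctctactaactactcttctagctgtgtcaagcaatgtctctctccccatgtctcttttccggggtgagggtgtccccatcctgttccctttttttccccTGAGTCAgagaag
Olfml3: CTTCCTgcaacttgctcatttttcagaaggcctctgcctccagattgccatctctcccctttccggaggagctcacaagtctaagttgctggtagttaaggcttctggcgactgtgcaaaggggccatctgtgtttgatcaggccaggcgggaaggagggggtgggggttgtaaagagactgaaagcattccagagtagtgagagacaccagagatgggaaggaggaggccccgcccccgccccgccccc

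Cd209f and Cd209g shared an identical stretch of 83 bases that holds the AP-1 match TGAGTCA, whereas the longest stretch shared by any other pair of these 6 genes was 12 bases. Of 32851 RefSeq start windows of 250 bases, 6.75% held the AP-1 motif, 29.5% the ETS core and 0.167% the SMAD motif. Cd209b held 3 ETS core matches, and Cd209d held 2, of which 1 lies in the part shown. Cd209a held no match to the 3 motifs. These are matches of letters in 250 bases before the start and were not tested for binding. Since Cd209 transcripts are closely related, counts may be split between them, and the value of each single gene is uncertain.

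Gene counts came to 13383274–16052955 per choroid plexus library and 22203235–32611875 per dura MHC II-high library, and 14860–15191 and 13910–14509 genes had at least 1 count. Levels below are in CPM, counts per 1000000 of a library's TMM-adjusted gene counts, and show changes of 1 gene between libraries, not differences between genes. Values of 4 libraries run from replicate 1 to 4, means are ± SD with n = 4, and log2 fold changes are choroid plexus over dura MHC II-high ± an approximate standard error. A gene was called at a Benjamini-Hochberg adjusted p under 0.05 in edgeR's quasi-likelihood test and at least a 2-fold change. By this rule 820 of 13960 genes tested were called higher in choroid plexus (5.87%) and 559 lower (4.00%), together 1379 (9.88%), and 38.2% had an unadjusted p under 0.05. These shares are the yardstick for all counts of list members called below. Of all genes tested, 18.1% lay higher in choroid plexus with no overlap between the libraries of each side, and 15.8% lay lower, so a lack of overlap is common. The floor of 3 counts stands at 0.0978–0.222 CPM in these 8 libraries. Both sides carried the core macrophage genes. EdgeR called 0 of 12 in either direction, their median log2 fold change was -0.02, and DESeq2 called 0, although 2 were higher and 5 lower at an unadjusted p under 0.05. Csf1r, the receptor for the macrophage growth factor CSF1, stood at 9884 ± 706 CPM against 6491 ± 314 CPM. Adgre1, the F4/80 antigen, stood at 2001 ± 195 CPM against 1839 ± 78.3 CPM. Ptprc, the pan-leukocyte antigen CD45, was lower by less than 2-fold (-0.81 ± 0.11, edgeR adjusted p = 2.82e-05).

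MHC class II transcripts were abundant on both sides, with overlapping levels. Of 10 class II genes tested, edgeR called 0 in either direction, 2 were higher and 1 lower at an unadjusted p under 0.05, and DESeq2 called 0. The invariant chain Cd74 had 25473, 30012, 36351 and 29277 CPM in choroid plexus and 33158, 29083, 31291 and 30001 CPM in dura MHC II-high libraries, with a log2 fold change of -0.03 ± 0.41 (95% interval -0.90 to 0.84). H2-Ab1, the beta chain of I-A, had 8392, 9295, 11551 and 9466 CPM and 12095, 10583, 11485 and 11065 CPM. The ranges of both genes overlapped, and the lowest library of each was choroid plexus replicate 1. H2-Aa changed by -0.19 ± 0.47 and H2-Eb1 by -0.28 ± 0.47 on the log2 scale. In dura macrophages with low MHC class II H2-Ab1 stood at 309.9 ± 18.7 CPM and in microglia at 20.2 ± 5.97 CPM. Ciita, the master regulator of class II transcription, was not called although its groups did not overlap (108 ± 20.8 against 167 ± 20.4 CPM, edgeR adjusted p = 0.381). Of all genes tested, 15.8% lay lower without overlap. Over 16 alternatives Ciita changed by -0.74 to -0.52 (log2), short of 2-fold in each, with adjusted p from 0.00334 to 0.550 (edgeR or DESeq2). The fit spans all 20 libraries, and the summed class II level ran from 587 to 5014 CPM in peritoneal libraries. The 16 alternatives include a fit of only the 8 libraries compared, which leaves out all other populations. The part of the peritoneal spread alone in the p-values was not tested. H2-Ob, part of the H2-O inhibitor of peptide loading, was higher by less than 2-fold (0.58 ± 0.18, edgeR adjusted p = 0.0221). H2 genes are closely related, so single values are uncertain.

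Most genes called higher in choroid plexus were rare in the dura. Of the 820, 729 were under 10 CPM in at least 1 dura MHC II-high library, whereas 166 had 3 counts or fewer over all 4, and 25 are on the lists of other cell types. Among the 7724 genes at 10 CPM or more in every dura MHC II-high library, 91 rose (1.18%) and 224 fell (2.90%). Among the 7976 genes at 10 CPM or more in every choroid plexus library, 113 fell (1.42%) and 286 rose (3.59%). Bulk libraries cannot tell fewer cells of a type from less RNA per cell. Without choroid plexus replicate 4, 646 genes were called higher and 492 lower, of which 622 and 445 were among those called with all libraries. No called gene changed direction.

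**Figure D1:**
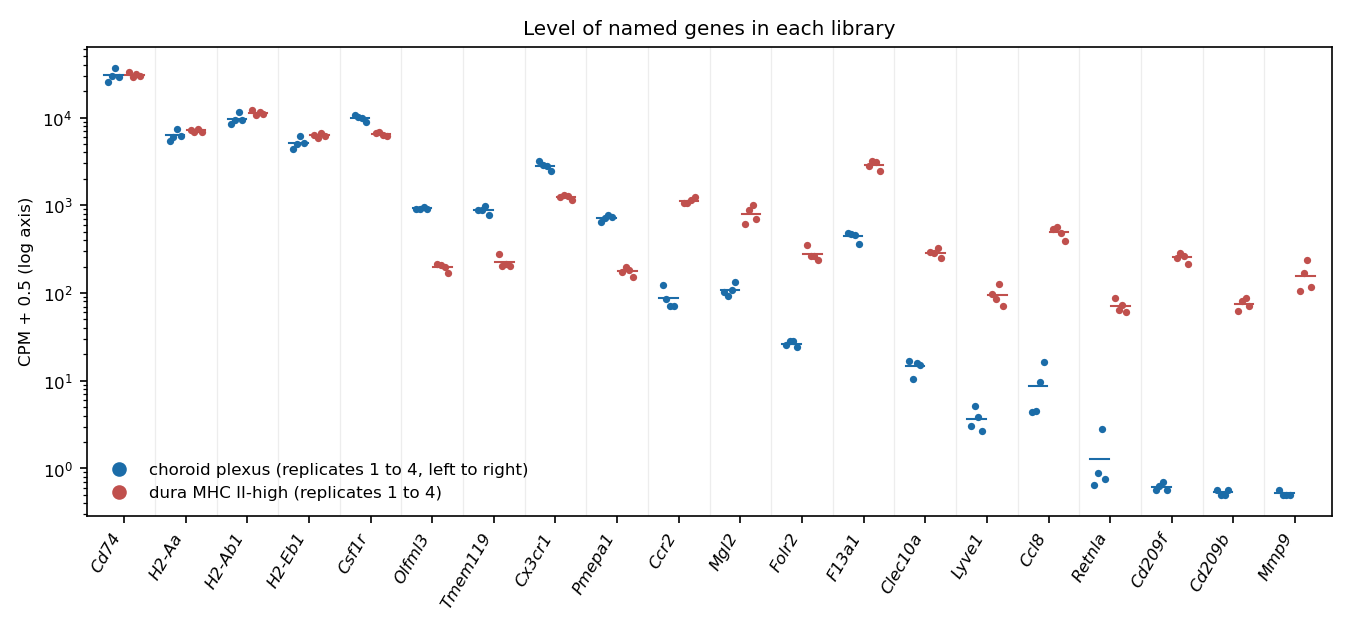
Level of 20 named genes in each of the 8 libraries, as CPM plus 0.5 on a log axis, with choroid plexus in blue and dura MHC II-high in red; points are replicates 1 to 4 from left to right and bars are means. The class II genes at the left overlap between the groups, Olfml3 to Pmepa1 lie higher in choroid plexus, and the genes from Ccr2 to Mmp9 lie lower without overlap.

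Several microglia-associated genes were higher in choroid plexus macrophages. Of 18 microglia markers tested, 6 rose and 2 fell, with a median log2 fold change of 0.73 against 0.01 over all genes tested. Olfml3 (chromosome 3, 103722222–103738001, minus strand in GENCODE M21), a secreted olfactomedin-like protein, had 912, 909, 955 and 903 CPM in choroid plexus and 214, 206, 197 and 170.4 CPM in dura MHC II-high libraries. The 4 choroid plexus values lie close together and well above the dura. The log2 fold change was 2.22 ± 0.14 (edgeR adjusted p = 9.78e-10). Tmem119 (chromosome 5, 113793729–113800516, minus strand), a membrane protein of unsettled function, had 888, 874, 974 and 778 CPM against 276, 204, 213 and 202 CPM, a log2 fold change of 1.97 ± 0.21 (edgeR adjusted p = 1.62e-06). Dura replicate 1 was the highest of its group and still far below every choroid plexus library. In microglia Olfml3 stood at 2984 ± 368 CPM and Tmem119 at 5487 ± 771 CPM, above both border populations, and in dura MHC II-low macrophages at 189 ± 32.4 and 114 ± 34.5 CPM.

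Cx3cr1, the receptor for the neuronal chemokine fractalkine, had 3172, 2838, 2776 and 2459 CPM against 1254, 1302, 1269 and 1155 CPM and rose by 1.18 ± 0.16 (log2). Each choroid plexus library lay above each dura library, as for 18.1% of all genes tested. Not all microglia genes followed. P2ry12, the ADP receptor that guides microglial processes, had 259 ± 17.7 CPM against 209 ± 18.6 CPM and was not called (edgeR adjusted p = 0.141), far from its 5779 ± 728 CPM in microglia. Sall1, the transcription factor that defines microglia, had 3 counts over all 4 choroid plexus libraries, against 85 counts in dura MHC II-high, a dura-to-choroid plexus ratio of 16.5 (95% counting interval 5.47 to 81.7), and stood at 388 ± 93.8 CPM in microglia. Bhlhe41, a basic helix-loop-helix repressor, had 35.6, 44.1, 41.9 and 36.9 CPM against 95.4, 383, 378 and 335 CPM and fell by 7.52-fold, with dura replicate 1 far below the other 3 dura libraries.

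**Figure D2:**
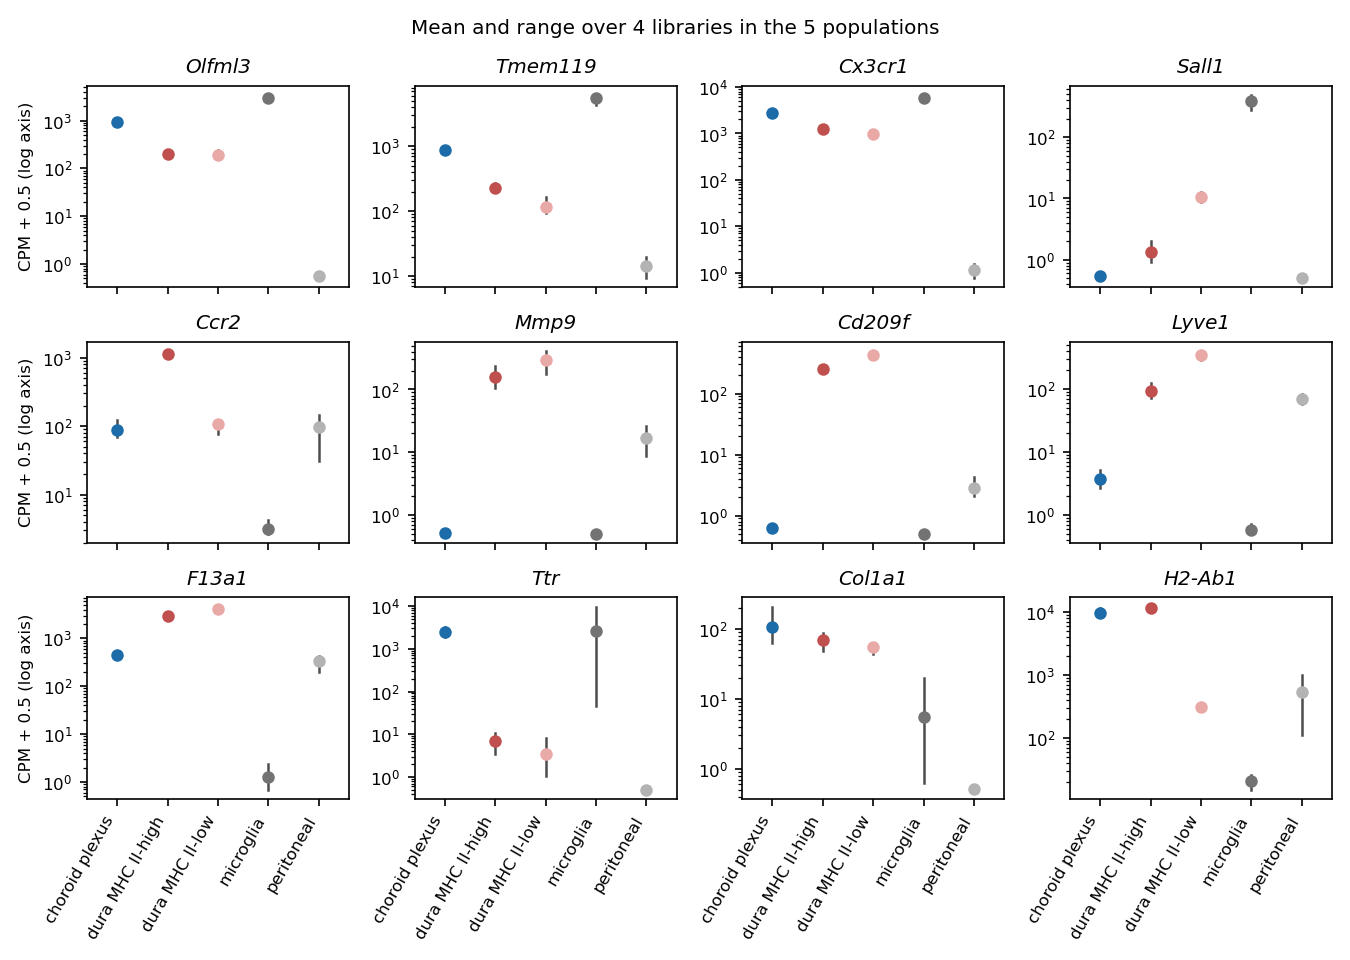
Mean level (point) and range over 4 libraries (line) of 12 genes in the 5 populations, as CPM plus 0.5 on log axes that differ between panels. Choroid plexus lies between dura and microglia for Olfml3, Tmem119 and Cx3cr1, near the floor for Sall1, Mmp9 and Cd209f, and level with dura MHC II-high for H2-Ab1; Ttr in microglia spans a wide range over its 4 libraries.

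Other genes that rose from 10 CPM or more in every dura library were named after their values were seen. Gpr165, an orphan receptor, had 183, 163, 155 and 141 CPM against 17.9, 19.4, 20.1 and 14.7 CPM and rose by 3.15 ± 0.15 (log2). Pmepa1, a transmembrane inhibitor of TGF-beta signalling that TGF-beta itself induces, had 642, 717, 770.1 and 726 CPM against 174, 195, 180.1 and 153 CPM and rose by 2.02 ± 0.15 (log2). The 4 choroid plexus libraries of each gene lie within a narrow band above the dura. Cd276, the checkpoint molecule B7-H3, rose by 2.07 ± 0.18 (log2) to 62.9 ± 5.11 CPM, and Neurl1a, a ubiquitin ligase, by 2.04 ± 0.19 to 72.6 ± 10.8 CPM. In microglia they stood at 171 ± 34.4 CPM for Gpr165, 320.1 ± 43.03 CPM for Pmepa1, 84.8 ± 19.5 CPM for Cd276 and 76.9 ± 10.3 CPM for Neurl1a. Lilra5, an activating immunoglobulin-like receptor and the only one of 18 border macrophage markers to rise, had 359, 379, 395 and 372 CPM against 132, 131, 158 and 129.7 CPM and 21.03 ± 3.001 CPM in microglia. Col14a1, a fibril-associated collagen, rose by 1.81 ± 0.38 (log2) to 244 ± 36.5 CPM and stood at 1.84 ± 0.817 CPM in microglia. Runx3, a transcription factor of lymphoid and dendritic lineages, rose by 1.14 ± 0.26 (log2), from 26.5 ± 3.89 to 58.2 ± 11.9 CPM. Cyr61, a matrix-associated signalling protein, had 437, 824, 1011 and 554 CPM against 107, 67.9, 77.2 and 84.97 CPM, and its level in dura MHC II-low macrophages was 392 ± 79.9 CPM.

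C-type lectins held many of the largest falls. Of 17 tested, 11 fell and 0 rose, and their median stood at -2.09 on the log2 scale. Cd209f had 0.0739, 0.132, 0.203 and 0.0635 CPM in choroid plexus, 7 counts in all, and 251, 285, 262 and 215 CPM in dura MHC II-high libraries, a log2 fold change of -11.00 ± 0.33 (edgeR adjusted p = 5.43e-13). Cd209b had 2 counts in choroid plexus and 61.7, 80.2, 88.3 and 70.1 CPM in the dura, a ratio of 2188 (95% counting interval 605 to 18067). Every dura library carried both transcripts and the choroid plexus libraries stood at or near 0. Cd209g and Cd209d had 1 count each in choroid plexus, both in replicate 1, so that without that library they stood at 0. Their dura levels were 81.04 ± 7.28 and 7.92 ± 2.12 CPM, which are 4807 (interval 863 to 189904) and 456 (interval 81.6 to 18036) times the choroid plexus levels. Cd209a, the mouse gene most often compared with human DC-SIGN, fell by 26.2-fold from 20.2 ± 7.44 to 0.773 ± 0.393 CPM.

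In dura MHC II-low macrophages Cd209f stood at 433 ± 52.1 CPM, Cd209b at 107 ± 19.1 CPM and Cd209g at 132 ± 11.9 CPM, and in microglia Cd209f and Cd209g had 0 counts. Clec10a, a lectin for galactose and N-acetylgalactosamine, had 16.3, 10.02, 15.2 and 14.6 CPM against 291, 285, 321 and 251 CPM and fell by 20.4-fold. Mgl2, a closely related lectin, had 102, 91.99, 107 and 132 CPM against 612, 871, 997 and 699 CPM and fell by 7.35-fold. Both were still at 10 CPM or more in each choroid plexus library. Fcna, the soluble lectin ficolin A of the complement lectin pathway, fell from 48.00 ± 12.1 to 1.89 ± 1.21 CPM, and stood at 1583 ± 189 CPM in peritoneal macrophages.

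Several monocyte genes were lower in the choroid plexus. Of 12 monocyte markers, 5 fell and 0 rose, and the median log2 fold change was -2.41. A positive log2 fold change was found for 3 members, of which the chemokine receptor Ccr1 was higher by less than 2-fold, at 293 ± 11.1 against 173 ± 30.4 CPM (edgeR adjusted p = 0.00113). Ccr2 (chromosome 9, 124101950–124113557, plus strand), the receptor by which monocytes leave the bone marrow, had 124, 85.1, 71.2 and 70.1 CPM in choroid plexus and 1071, 1067, 1135 and 1255 CPM in dura MHC II-high libraries. Replicate 1 was the highest of the choroid plexus libraries, and the groups were far apart. The log2 fold change was -3.69 ± 0.35 (edgeR adjusted p = 1.27e-06). Dura MHC II-low macrophages stood at 106 ± 19.6 CPM. S100a6, a calcium-binding protein, fell from 16.8 ± 3.67 to 0.869 ± 0.372 CPM. Fibronectin Fn1 fell, with a log2 fold change of -3.73 ± 0.75, and of -2.86 without dura replicate 4, whose 84.9 CPM was the highest. Outside the monocyte list, and named after their values were seen, Crip1 (-2.47), Vim (-2.42), Ahnak (-2.68) and Lgals3 (-3.31), which encode a LIM protein, an intermediate filament, a membrane scaffold and galectin-3, fell on the log2 scale. Vim had 42.6, 39.04, 42.5 and 43.8 CPM against 246, 197, 228 and 227 CPM, with little spread on either side. The dendritic cell list gave 4 of 14 lower and 0 higher, among them the integrin Itgax (CD11c) at 3.56 ± 0.697 against 36.7 ± 13.1 CPM and the peptidase Dpp4 (CD26) at 1.04 ± 0.526 against 10.5 ± 4.73 CPM.

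Chemokine ligands changed in both directions. Of 19 tested, 8 fell and 3 rose. Ccl8, a monocyte and T-cell attractant, had 3.92, 4.02, 9.14 and 15.8 CPM against 530.1, 571, 480.4 and 392 CPM, a log2 fold change of -5.90 ± 0.44 (edgeR adjusted p = 6.86e-08). Choroid plexus replicates 3 and 4 lie above replicates 1 and 2, all far below the dura. Ccl6 fell from 636 ± 87.3 to 178 ± 11.1 CPM, Ccl9 from 418 ± 68.6 to 110.0 ± 8.38 CPM, and the eosinophil attractant Ccl24 from 82.6 ± 9.85 to 19.3 ± 4.21 CPM. Cxcl9, an interferon-gamma-induced ligand, fell from 73.6 ± 20.9 to 24.2 ± 4.61 CPM. Ccl3 rose, with 617, 1735, 1698 and 737 CPM against 312, 423, 561 and 476 CPM and a log2 fold change of 1.43 ± 0.28. Its neighbour Ccl4 had 686, 1877, 1930.3 and 776 CPM against 495, 435, 776 and 589 CPM, and its groups overlapped. For both, choroid plexus replicates 2 and 3 were more than 2-fold above replicates 1 and 4. The summed immediate early and heat shock genes were split between the replicates in the same way, with 28577, 58774, 60929 and 27873 CPM in choroid plexus replicates 1 to 4 against 44872–50104 CPM in the dura, as did the summed cytokine and mediator genes, with 1262, 2937, 2790.0 and 1522 CPM against 1761–3305 CPM. Their part in the rise of Ccl3 and Ccl4 was not tested. Over genes tested with enough counts, choroid plexus replicates 2 and 3 differed least (chi-square over degrees of freedom 10.1), then 1 and 4 (19.0). The other pairs of choroid plexus libraries gave 30.6–39.8, and the reason for this grouping was not tested. Without replicate 2 or 3 Ccl4 was short of the 2-fold limit, at 0.98 and 0.95, and the count of ligands that rose fell to 1. Without replicate 1 or 4, 5 ligands fell. Cxcl14 rose by 1.01 ± 0.36 (log2) and lost its call without any of choroid plexus replicates 2 to 4 or dura replicates 1, 2 or 4, with adjusted p from edgeR between 0.0838 and 0.131. Ccl genes are closely related, and their single values are uncertain.

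Genes of alternative activation, the program that interleukin-4 induces, were lower in part. Of 12 tested 6 fell and 0 rose. Those that fell include Ccl24, Clec10a and Mgl2. Retnla, a secreted resistin-like protein, had 0.148, 0.396, 2.30 and 0.254 CPM against 87.2, 63.5, 72.4 and 60.4 CPM. The choroid plexus was near 0 except for replicate 3, and all libraries lay far below the dura. The log2 fold change was -6.50 ± 0.54, and -8.01 without that replicate. Retnla stood at 5.89 ± 2.05 CPM in dura MHC II-low macrophages. Il10, the anti-inflammatory cytokine, fell from 36.3 ± 12.1 to 6.52 ± 2.11 CPM, and the interleukin-1 receptor antagonist Il1rn from 28.7 ± 12.6 to 8.77 ± 4.39 CPM with overlapping groups. Tnfaip3, an inhibitor of NF-kB signalling, fell from 679.8 ± 189 to 229 ± 87.3 CPM. They were among the 4 of 14 cytokine and mediator genes that fell, and 0 rose, on a list whose sum was more than 1.5-fold higher in choroid plexus replicates 2 and 3 than in 1 and 4. Of 9 genes tested on the list of costimulatory and checkpoint ligands, 4 fell and 0 rose. Cd276, which rose, is not on this list. Cd274, the ligand PD-L1, had 10.9, 10.9, 9.55 and 18.2 CPM against 30.4, 31.97, 45.6 and 36.3 CPM, with replicate 4 the highest of the choroid plexus. Havcr2 (TIM-3), a checkpoint receptor on this list rather than a ligand, fell from 64.7 ± 6.23 to 29.7 ± 4.13 CPM. It stood at 297 ± 23.2 CPM in microglia. Tnfsf9, the 4-1BB ligand, fell (log2 fold change -1.21 ± 0.35), a call that ended without choroid plexus replicate 1 or 4 or dura replicate 3 or 4 (edgeR adjusted p = 0.0506 to 0.0646).

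Some complement and scavenger genes were lower on the choroid plexus side. Of 12 complement genes 4 fell, and 0 rose. Cfp (properdin, which stabilizes the alternative-pathway convertase) had 13.2, 7.78, 11.4 and 10.8 CPM against 481, 464, 544 and 408 CPM, a log2 fold change of -5.46 ± 0.18 (edgeR adjusted p = 8.13e-14). C3, the central component, had 33.2, 26.4, 25.6 and 27.8 CPM against 223, 167, 143 and 152 CPM, a log2 fold change of -2.60 ± 0.30. The groups were far apart for both genes. Cfb (factor B) fell (log2 fold change -4.17 ± 0.61), though a 79.5% share of its exon length lies under other genes and its count is uncertain. Among border macrophage markers 7 of 18 fell, although their summed level was higher in choroid plexus, at 48844–55589 against 39283–43615 CPM. By gene, 14 of the 18 had a negative log2 fold change, with a median of -0.74. Lyve1, a hyaluronan receptor, had 2.51, 4.68, 3.39 and 2.16 CPM against 96.6, 84.3, 128 and 71.2 CPM, a log2 fold change of -4.89 ± 0.26. Folr2, folate receptor beta, had 25.2, 27.9, 27.6 and 23.4 CPM against 349, 266, 260.0 and 234 CPM, and a 63.1% share of its exon length lies under other genes. F13a1, the A subunit of coagulation factor XIII, had 481, 472, 452 and 365 CPM against 2805, 3204, 3134 and 2461 CPM. None of these groups overlapped, and 15.8% of all genes tested lay lower in choroid plexus without overlap. Levels in dura MHC II-low macrophages were 351 ± 48.1 CPM for Lyve1, 475 ± 27.7 CPM for Folr2 and 4225 ± 287 CPM for F13a1.

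The scavenger receptors Cd163, which takes up haemoglobin, and Cd36, which takes up oxidized lipids, fell with log2 fold changes of -1.27 ± 0.21 and -1.18 ± 0.22, and 4 of 12 scavenger receptors fell in all, with 0 higher. Other border macrophage markers differed less. Mrc1, the mannose receptor CD206, had 1837 ± 147 CPM against 2922 ± 367 CPM, a difference under 2-fold (-0.67 ± 0.17). Pf4 had 306 ± 20.7 CPM against 539 ± 143 CPM, also under 2-fold, and Ms4a7 had 479 ± 21.3 CPM against 517 ± 20.6 CPM with overlapping groups. In microglia Mrc1 stood at 18.2 ± 1.82 CPM, Pf4 at 0.682 ± 0.256 CPM and Ms4a7 at 0.606 ± 0.520 CPM. Timd4, a phosphatidylserine receptor for apoptotic cells, fell (log2 fold change -3.16 ± 0.28), as did Cd300lb, an activating receptor (-3.89 ± 0.19), whereas Mfge8, a secreted bridge to apoptotic cells, rose by 1.30 ± 0.25 (log2). These 3 were the only calls among 13 apoptotic cell uptake genes, in which Mertk stood at 129.7 ± 11.6 CPM against 131 ± 12.2 CPM.

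Matrix-degrading enzymes differed most through Mmp9 (chromosome 2, 164940780–164955850, plus strand), gelatinase B, which cleaves collagen IV. Mmp9 had 1 count in choroid plexus, in replicate 1, and 104, 170.0, 239.8 and 116 CPM in dura MHC II-high libraries. Without that library the choroid plexus stood at 0. The dura-to-choroid plexus ratio was 9016 (95% counting interval 1618 to 356151; edgeR adjusted p = 1.27e-07). Mmp9 stood at 297 ± 122 CPM in dura MHC II-low macrophages and at 0 counts in microglia. Hpse, the heparan sulfate-degrading heparanase, had 0.148, 0.132, 1.15 and 1.91 CPM against 45.4, 43.7, 45.7 and 30.9 CPM, a log2 fold change of -5.59 ± 0.42, and of -6.40 without choroid plexus replicate 4. The elastase Mmp12 fell from 14.3 ± 3.78 to 1.69 ± 0.719 CPM. Mmp2 (gelatinase A) rose by 1.33 ± 0.28 (log2), Adamts1 by 1.44 ± 0.38, and the inhibitor Timp3, with a 21.3% share of its exon length under other genes, by 2.93 ± 0.67. In all 3 of 15 genes of this list rose and 3 fell. Nov, a matricellular protein, fell from 19.3, 54.5, 17.7 and 109 CPM in the dura to 0.591, 0.264, 0.677 and 0.127 CPM, with a log2 fold change of -6.92, and of -6.19 without dura replicate 4. Dura replicates 2 and 4 were well above replicates 1 and 3, as they were for Fn1. Acp5, tartrate-resistant acid phosphatase of osteoclasts and macrophages, fell from 24.7 ± 6.46 to 5.37 ± 1.52 CPM. Of 6 osteoclast genes 1 rose and 2 fell, and 1 fell without choroid plexus replicate 1 or 4 or dura replicate 4.

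Among iron and lipid genes all calls were downward, where 4.00% of all genes tested were called lower. Slc40a1 (ferroportin, the iron exporter) had 55.4, 47.3, 40.02 and 44.2 CPM against 193, 378, 276 and 159 CPM, and Tfrc, the transferrin receptor, had 10.3, 8.31, 5.76 and 6.54 CPM against 30.7, 45.6, 55.8 and 37.1 CPM. They were the 2 that fell among 12 iron and heme genes, with 0 higher. For both, every dura library lay above every choroid plexus library, as for 15.8% of all genes tested. Lpl, lipoprotein lipase, and Pltp, phospholipid transfer protein, fell with log2 fold changes of -1.49 ± 0.23 and -1.56 ± 0.30, the 2 calls among 14 lipid genes. The summed level of the lipid genes was nevertheless higher in choroid plexus, at 43644–50013 against 30220–34577 CPM. By gene, 10 of the 14 had a negative log2 fold change, with a median of -0.41. Pla2g2d, a secreted phospholipase A2, fell from 220.1 ± 19.9 to 20.6 ± 2.33 CPM. Of 16 cholesterol synthesis genes 3 rose and 0 fell, and 15 had a positive log2 fold change. Squalene epoxidase Sqle had 27.2, 23.9, 29.3 and 37.04 CPM against 6.62, 5.71, 9.70 and 9.20 CPM, a log2 fold change of 1.91 ± 0.50. Fdft1, squalene synthase, rose by 1.29 ± 0.29 (log2).

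Most genes of the cell cycle list were lower in choroid plexus macrophages. Of 12 proliferation genes 7 fell and 0 rose, all 12 had a negative log2 fold change, and the median was -1.13. Top2a, the mitotic topoisomerase, had 15.6, 18.3, 14.2 and 23.00 CPM against 67.4, 40.04, 41.97 and 71.4 CPM, a log2 fold change of -1.64 ± 0.37. Mki67, the antigen Ki-67, had 7.24, 15.6, 10.5 and 11.4 CPM against 40.7, 17.97, 28.3 and 48.9 CPM, a log2 fold change of -1.60 ± 0.39. For both, dura replicates 1 and 4 lie above 2 and 3. Birc5 (survivin) and Ccnb1 (cyclin B1) fell with log2 fold changes of -1.62 ± 0.43 and -1.41 ± 0.43. The count was 4 without choroid plexus replicate 3 or dura replicate 1 or 4, and Ccnb1 was not called then (edgeR adjusted p = 0.0531 to 0.0744).

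A few genes of TGF-beta signalling rose. Of 18 tested 3 rose, Smad6, Tgfb2 and Tgfbr3, and 0 fell, with a median of 0.22. Over all genes tested 5.87% were called higher and 4.00% lower, with a median of 0.01. Smad6, an inhibitory Smad, had 20.2, 13.1, 23.2 and 31.8 CPM against 5.51, 5.84, 4.35 and 6.06 CPM, a log2 fold change of 2.02 ± 0.27. Id1 and Id3, inhibitors of helix-loop-helix factors and members of the macrophage transcription factor list, rose by 2.77 ± 0.61 and 2.01 ± 0.66 (log2), and Id3 had 59.9, 48.4, 71.6 and 120.4 CPM against 16.2, 13.6, 24.2 and 20.6 CPM. Replicate 4 was the highest choroid plexus library for Smad6, Id1 and Id3, at 1.69, 1.59 and 2.01 times the mean of the other 3. Without it Id3 was not called (1.69, edgeR adjusted p = 0.0967), nor was it without choroid plexus replicate 3 or any 1 dura library (edgeR adjusted p = 0.0552 to 0.0833). Pmepa1, which is on no list, in replicate 4 was 1.02 times the mean of the others. Tgfb2 rose by 3.80 ± 0.96 (log2), or 4.85 without dura replicate 4, from a dura level of 0.635 ± 0.703 CPM. Tgfbr3 rose by 1.91 ± 0.67 (log2) and lost its call without any 1 of choroid plexus replicates 1, 3 and 4 or dura replicates 1 to 3 (edgeR adjusted p = 0.0587 to 0.114).

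**Figure D3:**
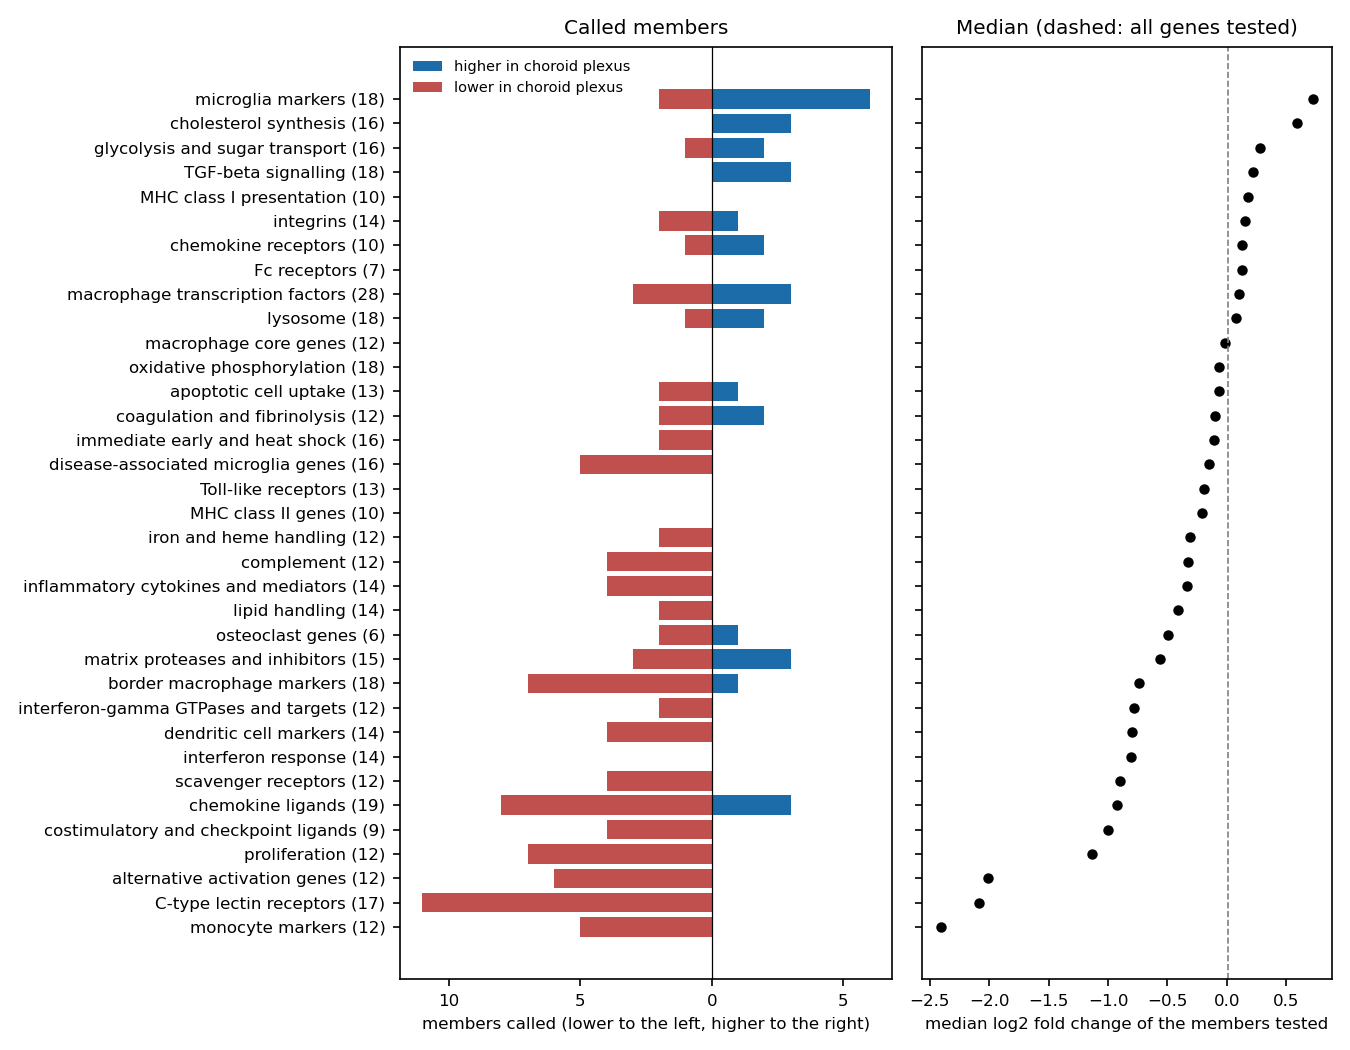
The 35 macrophage gene lists, with the number of members tested in parentheses; bars on the left count members called lower (red) and higher (blue) in choroid plexus, and points on the right give the median log2 fold change of the members tested. Microglia markers have the highest median at 0.73, and monocyte markers, C-type lectins and alternative activation genes have the lowest, between -2.41 and -2.01.

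Transcripts of choroid plexus epithelium were abundant in the choroid plexus libraries. Of 19 epithelial genes tested, 15 rose and 0 fell, and their summed level was 4259.8–8049 CPM against 28.8–62.9 CPM in dura MHC II-high libraries. Ttr, the thyroid hormone carrier that the epithelium secretes, had 3178, 2079, 2595 and 1936 CPM against 5.09, 2.94, 7.09 and 10.4 CPM, a log2 fold change of 8.58 ± 1.71 (edgeR adjusted p = 0.00301). Kl (klotho, a co-receptor of FGF23) had 279.6, 149, 159 and 106 CPM against 0.424, 0.223, 0 and 0.747 CPM, and Folr1, the folate receptor of this epithelium, had 63.3, 44.05, 50.7 and 39.2 CPM against 0.326, 0.134, 0.174 and 0.0787 CPM. Replicate 1 was the highest choroid plexus library for each of the 3 genes and replicate 4 the lowest. This order extended over the list: all 19 epithelial genes were highest in replicate 1, whereas 26.5% of all genes tested were. The median ratio of replicate 4 to the mean of the other 3 was 0.615. On the log2 scale Kl changed by 9.51 without dura replicate 4 and 8.88 with it. Enpp2 (autotaxin) changed by 8.34 (log2), or 9.13 without dura replicate 4, in which the epithelial sum was highest at 62.9 CPM. Kcnj13, a potassium channel with a 49.1% share of its exon length under other genes, changed by 9.19 and the channel subunit Kcne2 by 8.37, or by 9.90 and 10.28 without dura replicate 2.

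The same transcripts occurred in microglia libraries, where the summed level ran from 73.2 to 21835 CPM over 4 libraries and Ttr from 45.01 to 9725 CPM. These microglia libraries also entered the estimate of spread behind the standard errors given for epithelial genes. In peritoneal macrophages Ttr and Kl had 0 counts. The whole epithelial list nevertheless summed to 61.5–92.6 CPM there, against 28.8–62.9 CPM in dura MHC II-high libraries. The part of epithelial RNA in other differences was not tested.

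Of the 14 genes with the largest rises outside the lists of other cell types, 11 had their highest level in choroid plexus replicate 1, like the epithelial genes. Of all genes called higher, 38.0% did. Car12, a carbonic anhydrase, Slc29a4, a monoamine transporter, and Slc7a10, an amino acid transporter, had 0 counts in all 4 dura libraries, so that they were at least 1601-, 1093- and 732-fold higher in choroid plexus against a floor of 3 counts over the group. Car12 had 64.1, 47.7, 50.4 and 29.6 CPM in choroid plexus. Sostdc1, a secreted antagonist of BMP and Wnt, rose by 8.55 ± 1.85 (log2) and by 9.16 without dura replicate 3. The potassium channel Kcnk1 rose by 7.98 ± 1.67 (log2) and by 9.06 without dura replicate 1. The thyroid hormone transporter Slco1c1, the phosphatase inhibitor Ppp1r1b, the membrane protein Gpm6a and the semaphorin Sema3b rose by 6.57 (log2), 6.56, 5.79 and 5.45. Sema3b was not called without dura replicate 1, 2 or 3 (edgeR adjusted p = 0.0506 to 0.0575). Elovl7, a fatty acid elongase, and Vat1l rose by 6.28 and 6.03, or by 6.89 without dura replicate 2 and 7.02 without dura replicate 4. These are the 11 genes highest in replicate 1. Car2, carbonic anhydrase 2 of osteoclasts and epithelia, changed by 5.24 (log2), or 5.89 without dura replicate 1, and coagulation factor F5 by 4.36. Both were highest in replicate 1 and lowest in replicate 4, with replicate 1 at 1.89 and 1.84 times the mean of the others.

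Most fibroblast transcripts were highest in replicate 4. The summed level of the 12 fibroblast genes was 430.0, 348, 469.9 and 1078 CPM in choroid plexus replicates 1 to 4, and 167–340.0 CPM in dura MHC II-high libraries. Replicate 4 stood apart from the other 3. Of 11 fibroblast genes tested, 8 were highest in replicate 4, as were 26.8% of all genes tested. By call, 2 rose and 0 fell. Without any 1 of the 8 libraries the count was 1. Col1a1, a chain of collagen I, had 81.1, 62.7, 74.6 and 207 CPM against 47.3, 77.7, 85.8 and 65.4 CPM, and the groups overlapped (log2 fold change 0.63 ± 0.76, edgeR adjusted p = 0.583). Tcf21, a transcription factor of mesenchyme, had 19.7, 17.01, 28.5 and 60.9 CPM against 1.08, 0.624, 0 and 0 CPM, a log2 fold change of 6.15 ± 1.47, which was 5.63 (edgeR adjusted p = 0.0290) without choroid plexus replicate 4 and 7.25 without dura replicate 1. Pdgfra, a receptor of fibroblasts, rose by 3.31 ± 1.12 (log2) and was not called when any 1 of the 8 libraries was left out (edgeR adjusted p = 0.0543 to 0.124). Dpt was at 0 in all 8 libraries. The part of fibroblast RNA in other differences was not tested.

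Several genes that rose were highest in replicate 4, as were 35% of all genes called higher. Igfbp7, an insulin-like growth factor binding protein of vessels and stroma, had 170.0, 150.3, 236 and 539 CPM against 16.2, 14.8, 17.1 and 24.9 CPM, a log2 fold change of 3.91 ± 0.60 with all libraries and 3.35 (edgeR adjusted p = 7.02e-04) without replicate 4. Moxd1, a monooxygenase, had 162, 126, 196 and 464 CPM against 6.62, 10.9, 3.001 and 0.0393 CPM, and was not called without choroid plexus replicate 4 (4.98, edgeR adjusted p = 0.0519) or dura replicate 3 (edgeR adjusted p = 0.0568). Its log2 fold change was 5.53, or 6.18 without dura replicate 2. The chemokine Cxcl12 had 64.6, 45.04, 91.8 and 195 CPM against 13.5, 27.5, 19.9 and 36.5 CPM and lost its call without replicate 4 (1.47, edgeR adjusted p = 0.0581). In each of these 3 genes replicate 4 was more than 2-fold above the next library. The renal dipeptidase Dpep1 changed by 5.50 (log2), or 4.82 without choroid plexus replicate 4. Timp3, Apod and Cnn3, an inhibitor of metalloproteinases, an apolipoprotein and a calponin, were 1.67, 2.54 and 1.83 times higher in replicate 4 than the mean of the others. Cnn3 was not called without choroid plexus replicate 4 or dura replicate 1, 2 or 4 (edgeR adjusted p = 0.0610 to 0.0847). Tissue factor F3 had 39.9, 30.4, 41.8 and 104 CPM against 7.43, 12.98, 4.48 and 33.5 CPM, with overlap, and was not called without any 1 of choroid plexus replicates 1, 3 and 4 or dura replicates 1 to 3 (edgeR adjusted p = 0.0561 to 0.156). Without dura replicate 4 it changed by 2.71, against 1.89 with it.

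Endothelial and ependymal transcripts rose in part, and mural transcripts changed in both directions. Of 8 mural genes 1 rose and 1 fell, with a median log2 fold change of 0.04. Acta2, smooth muscle actin, singled out after its values were seen, had 1.55, 0.264, 0.948 and 0.191 CPM against 2.41, 4.90, 17.1 and 7.95 CPM and fell, with a log2 fold change of -3.47 ± 0.90, and of -4.12 without choroid plexus replicate 1 and -2.80 without dura replicate 3. Pdgfrb, a receptor of mural cells, changed by 2.32 (log2) with 113 CPM in replicate 4, and was not called without choroid plexus replicate 4 or any 1 dura library (edgeR adjusted p = 0.0525 to 0.122). Alpl, alkaline phosphatase of osteoblasts and other stroma, had 140.2, 125, 203 and 481 CPM against 21.5, 28.1, 17.7 and 20.1 CPM. Its log2 fold change of 3.44 was 2.84 without choroid plexus replicate 4, and its call was lost then and without dura replicate 1, 3 or 4 (edgeR adjusted p = 0.0555 to 0.0733). The osteoblast markers Bglap2, Ibsp and Dmp1 were at 0 in choroid plexus. Endothelial genes summed to 69.3–153 CPM against 18.7–53.8 CPM, and 3 of 10 rose. Plvap, of fenestrated endothelium, changed by 2.59 and lost its call without dura replicate 1 or 2 (edgeR adjusted p = 0.0522 and 0.0537), and the VEGF receptor Kdr changed by 1.81 (log2). All 3 ependymal genes tested rose, with sums of 8.31–13.7 CPM against 0.424–1.10 CPM. Gja1, connexin 43 of astrocytes and meningeal cells, fell, with a log2 fold change of -3.30 ± 0.72, and of -2.33 without dura replicate 4, which had 78.9 CPM. Neutrophil genes summed to at most 0.191 and 1.17 CPM. The T and NK cell list summed to 94.7–127 CPM against 107–139 CPM, with Cd3e, Nkg7 and Ncr1 at 0 in all 8 libraries. Only 1 of its 8 genes passed the filter (log2 fold change -0.27), and the list summed to 255–293 CPM in dura MHC II-low libraries. The B cell, mast cell, erythroid, neuron and oligodendrocyte sums reached at most 72.5, 5.03, 6.03, 1.92 and 272 CPM in choroid plexus, and 53.1, 3.70, 6.29, 10.3 and 282 CPM in dura MHC II-high libraries. By gene, 2 of 4 B cell genes fell, Ms4a1 (CD20) and Cd79a of the B cell receptor, while the sum was carried by Cd79b. Ms4a1 had 0.222 ± 0.165 against 2.19 ± 2.49 CPM with overlapping groups and Cd79a 0.209 ± 0.156 against 1.82 ± 1.45 CPM. Ms4a1 was not called without any 1 choroid plexus library or dura replicate 2, 3 or 4 (edgeR adjusted p = 0.0513 to 0.199). Cd79a was not called without choroid plexus replicate 2, 3 or 4 or dura replicate 3 (edgeR adjusted p = 0.0635 to 0.0868). Of 5 neuronal genes 1 fell, the synaptic protein gene Snap25, at 0.106 ± 0.0950 against 2.28 ± 1.51 CPM, and of 8 astrocyte genes 2 fell, Gja1 and the calcium-binding protein gene S100b, the latter at 0.530 ± 0.285 against 4.14 ± 1.15 CPM. No member of the B cell, neuronal and astrocyte lists was called higher. Of the 8 astrocyte genes, however, 5 had a positive log2 fold change, with a list median of 0.15 and a maximum of 5.61. At an unadjusted edgeR p under 0.05, 2 astrocyte genes were higher and 2 lower. The B cell and neuronal lists had 1 positive member each. Ms4a1, Cd79a, Snap25 and S100b were named after their values were seen.

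**Figure D4:**
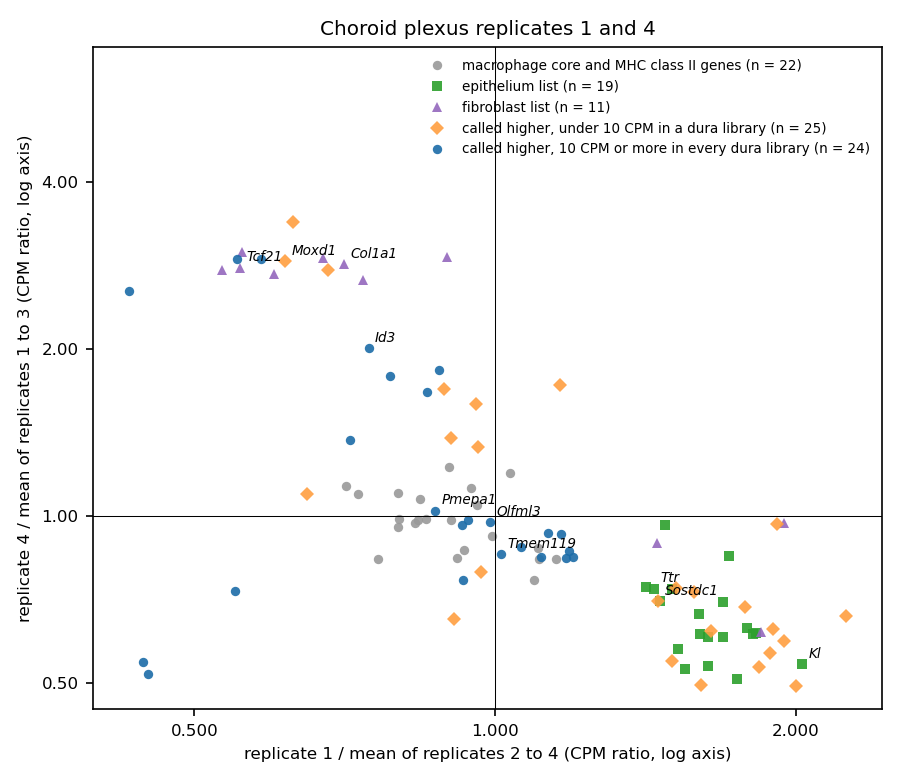
Ratio of choroid plexus replicate 1 to the mean of replicates 2 to 4 (horizontal) and of replicate 4 to the mean of replicates 1 to 3 (vertical), on log axes, for epithelial, fibroblast, macrophage core and class II genes and the named genes called higher. Epithelial genes lie at the lower right and most fibroblast genes at the upper left, while Olfml3, Tmem119, Pmepa1 and the core and class II genes lie nearer to 1 on both axes.

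Olfml3, Tmem119 and Lilra5 were nearly level over the choroid plexus replicates. Replicate 4 stood at 0.977 times the mean of the others for Olfml3, 0.853 for Tmem119 and 0.985 for Lilra5, and replicate 1 at 0.989, 1.01 and 0.939 times. Over the 91 genes that rose from 10 CPM or more in every dura library the median ratio of replicate 4 was 0.961, against 0.986 over all genes tested. Left out, replicate 4 moved the log2 fold change of Olfml3 to 2.24, Tmem119 to 2.03, Ccr2 to -3.59, Lyve1 to -4.74 and Clec10a to -4.37, each still called. Olfml3, Tmem119, Cx3cr1, Ccr2, Cd209f, Lyve1 and Clec10a kept their call and direction in each of the 16 alternative analyses.

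Several programs showed no calls and others held some, where 5.87% of all genes tested were called higher and 4.00% lower. EdgeR called none of 10 MHC class I presentation genes, 7 Fc receptors, 13 Toll-like receptor genes, 14 interferon response genes or 18 oxidative phosphorylation genes, and DESeq2 called none. At an unadjusted p under 0.05, 1 and 0 class I genes, 1 and 3 Fc receptors, 1 and 5 Toll-like receptor genes, 0 and 1 interferon genes and 2 and 4 oxidative phosphorylation genes were higher and lower. The median of the interferon list was -0.81. Of 12 interferon-gamma GTPases and targets 2 fell, Cxcl9 and Gbp7, a guanylate-binding protein that went from 168 ± 28.2 to 75.6 ± 22.2 CPM. The summed level of this list was 711, 682, 772 and 1489.5 CPM in choroid plexus against 1074–1837 CPM, with replicate 4 at 2.06 times the mean of the other 3. Gbp7 was also highest in replicate 4, at 108 CPM, and both genes kept their calls without it. Among 28 macrophage transcription factors 3 rose and 3 fell, among them Pparg, a lipid-sensing nuclear receptor, at 13.8 ± 2.11 against 29.4 ± 7.27 CPM. The Pparg call ended without choroid plexus replicate 1, 3 or 4 or dura replicate 4 (edgeR adjusted p = 0.0533 to 0.0942). The inducible heat shock genes Hspa1a and Hspa1b, near-identical copies, had 509.9 ± 235 against 1131 ± 390.1 CPM and 238 ± 93.2 against 748 ± 325 CPM with overlapping groups. They were the 2 calls among 16 immediate early and heat shock genes, whose sum was high in choroid plexus replicates 2 and 3 and low in 1 and 4, of which 0 fell without choroid plexus replicate 1 or dura replicate 3 and 1 without choroid plexus replicate 4. Hspa1a was not called without choroid plexus replicate 1 or 4 or dura replicate 3 (-0.94, -1.06 and -0.93), nor Hspa1b without choroid plexus replicate 1 or dura replicate 3 (edgeR adjusted p = 0.0514 and 0.0550).

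A few further genes complete the lists, whose counts stand beside 5.87% of all genes tested called higher and 4.00% lower. Slc2a1, the glucose transporter GLUT1, had 50.6, 48.1, 50.9 and 43.97 CPM against 24.6, 20.3, 22.5 and 19.8 CPM, a log2 fold change of 1.15 ± 0.12, and Eno1, the glycolytic enolase, fell (log2 fold change -2.26 ± 0.29) at a level of 10.3 ± 2.13 CPM in the dura. They belong to a list in which 2 of 16 rose and 1 fell. Without choroid plexus replicate 1 or 2 or dura replicate 4, 1 of these 16 rose. Itga6, the laminin receptor subunit, rose by 1.08 ± 0.14 (log2), and Itgb7, a subunit of gut-homing integrins, fell (log2 fold change -2.05 ± 0.51). Cathepsin E (Ctse) rose by 1.55 ± 0.31 (log2). The lysosomal galactosidase Gla fell (log2 fold change -1.07 ± 0.38), with dura replicate 3 at 58.7 CPM and overlapping groups, and was not called without choroid plexus replicate 1, 3 or 4 or dura replicate 2, 3 or 4 (edgeR adjusted p = 0.0510 to 0.165). Without any of these 6 libraries 0 lysosomal genes fell, whereas 1 of 18 fell and 2 rose with all libraries. Plaur, the urokinase receptor, fell from 23.97 ± 6.20 to 5.15 ± 1.34 CPM. Of 12 coagulation and fibrinolysis genes 2 rose, F3 and F5, and 2 fell, F13a1 and Plaur, and 1 rose without any 1 of choroid plexus replicates 1, 3 and 4 or dura replicates 1 to 3. Of 10 chemokine receptors 2 rose and 1 fell, and 1 rose without choroid plexus replicate 1 or 3 or dura replicate 1, 2 or 3. Of 16 disease-associated microglia genes 5 fell, among them Lpl, Itgax, Lgals3 and Ccl6, and 0 rose. Their summed level was higher in choroid plexus, at 44919–51425 against 31096–35471 CPM, while 9 of 16 had a negative log2 fold change (median -0.15). Apoe is on this list, the lipid list and the border macrophage list, so these sums are not independent. Adgre4, an adhesion receptor related to F4/80, and Rgs18, a regulator of G-protein signalling, fell with log2 fold changes of -4.66 ± 0.42 and -2.95 ± 0.14. Rn45s, the ribosomal RNA precursor, was singled out after its values were seen, with 2991 ± 422 CPM in choroid plexus against 874 ± 115 CPM in dura MHC II-high, 775 ± 60.9 CPM in dura MHC II-low and 1768 ± 423 CPM in microglia libraries, and its part in other differences was not tested.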

How the data were processed

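Total RNA of 20 libraries, 4 from each of 5 macrophage populations, had been sequenced. The authors deposited a separate table of whole-number counts by gene symbol for each library, each with 24421 genes and 5 closing lines that name no gene. Per the submitters' processing notes, FastQC 0.11.4, Trimmomatic 0.38, TopHat2 2.1.0, SAMtools 0.1.18 and the mouse build mm10 were used. No source used here names the counting program, its annotation or whether it used strand, so overlapping, antisense and closely related genes are uncertain. In the 8 libraries compared, reads on no gene made up 5.67–10.5% of each library's lines and ambiguous reads 0.977–1.16%, and both stayed out of library sizes.

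Genes were filtered by population (filterByExpr) and fitted over all 20 libraries with TMM factors and edgeR 4.0.16 (R 4.3.3) robust quasi-likelihood tests, with 15 residual degrees of freedom. Called genes had a Benjamini-Hochberg adjusted p under 0.05 over 13960 genes and at least a 2-fold change. CPM used TMM-adjusted library sizes. Intervals and the floor of 3 counts cover counting error only. The steps were tested on simulated data. DESeq2 1.42.0 was among 16 alternatives, with other scaling, filters, samples, depth, a replicate block and each library left out.

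The libraries, the 49 gene lists and the naming rule were chosen with earlier results of these data known. Named were 13 fixed genes, the 14 largest rises and 14 largest falls at 20 CPM or more without overlap (leaving out class II genes, the lists of other cell types, clones, gene models, pseudogenes and mitochondrial genes), and up to 4 members per list and direction at 10 CPM or more (5 for other cell types). Of the genes this names, 3 are not reported here. The 14 largest changes either way among genes with 10 CPM or more in every library of the lower side were added after values were seen. Gene positions came from GENCODE M21 by symbol, for 148 of 151 named genes, and sequences from RefSeq start windows in GRCm38.p6.

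Same-numbered choroid plexus and dura libraries did not deviate together (correlations over genes from -0.026 to 0.052), so the numbers were not taken as pairs.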

Additional observations from a re-analysis of the deposited data

Results flagged for a closer look

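Among 310 sets of 4 libraries checked, 25 values stood apart from the other 3 of their group by Dixon's criterion (8.06%, where chance gives about 1 in 20). High choroid plexus values in CPM were Olfml3 in replicate 3 (955), Mmp9, Cd209g and Cd209d in replicate 1 (0.0739, a single count each), Cd79a in replicate 1 (0.443), Retnla (2.30) and Acp5 (7.65) in replicate 3, and Mmp12 in replicate 2 (2.77). In replicate 4 they were Col1a1 (207), Cd274 (18.2), F3 (104) and the summed fibroblast genes (1078). Low choroid plexus values were Sall1 in replicate 2 (0) and Eno1 in replicate 4 (1.33).

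High values in dura MHC II-high libraries were Tmem119 (276) and Acp5 (34.3) in replicate 1, Lilra5 (158) and Gla (58.7) in replicate 3, and Enpp2 (17.7), Gja1 (78.9) and the summed epithelial genes (62.9) in replicate 4. Low dura values were Hpse in replicate 4 (30.9), Bhlhe41 in replicate 1 (95.4), Itgb7 in replicate 2 (8.83) and Pdgfra in replicate 3 (1.91). The groups did not overlap, among others, for Olfml3, Tmem119, Mmp9, Cd209g, Cd209d, Retnla, Hpse, Bhlhe41, Sall1, Lilra5, Cd274 and Acp5 with these values included. Over all genes tested, 18.1% lay higher in choroid plexus without overlap and 15.8% lower.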

How the results depend on the processing

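Under 16 alternatives 127 of 151 named genes kept their direction and their side of the threshold. With a filter of 10 CPM, which tested 8783 genes, 361 genes were higher and 262 lower in choroid plexus. The other settings stayed within 1.5 times of the 820 higher and 559 lower genes, and leaving out each library gave 646 to 747 higher and 458 to 561 lower. With a replicate block 803 genes were higher and 534 lower, F3, Hspa1a, Hspa1b, Pdgfra, Cd79a and Ms4a1 were not called (edgeR adjusted p = 0.0512 to 0.105), and 1 of 4 choroid plexus libraries correlated best with its own number. Between 8 and 20 libraries in the fit, 998 against 820 genes were higher. With only those 8, Ccl4, F3, Gla and Hspa1a were not called (edgeR adjusted p = 0.0503 to 0.0696), and with no filter on low counts Cxcl14, F3, Gla, Pdgfra and Tgfbr3 were not (0.0539 to 0.0609). Log2 fold changes near 0 turned sign for genes that were never called. With each library left out, Cd68 ranged from -0.0663 to 0.0284, Cd74 from -0.131 to 0.0447 and Mertk from -0.0583 to 0.0560. Cd68 stood at 0.000202 with the 10 CPM filter, 0.0284 without choroid plexus replicate 1 and 0.00751 without dura replicate 1. Cd74 stood at 0.0447 without choroid plexus replicate 1. Mertk stood at 0.0140 with DESeq2 size factors, 0.0146 with the 10 CPM filter, 0.0139 in DESeq2, 0.0560 without choroid plexus replicate 4, 0.0106 without dura replicate 1 and 0.0401 without dura replicate 2. Choroid plexus libraries were shallower, and genes under the floor of 0.191–0.222 CPM there could not be told from absent. The cause of these shifts was not tested.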
